A study of Mus musculus with 12 samples.

Results

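Notch signaling passes a signal between touching cells. A Delta or Jagged ligand on the surface of a cell binds a Notch receptor on its neighbour, the receptor is cut by ADAM proteases and then by gamma-secretase, and the freed intracellular domain enters the nucleus, where it joins the DNA-binding protein RBPJ (CSL) and a Mastermind coactivator and turns on genes of the HES and HEY families. These families encode basic helix-loop-helix repressors. In muscle the pathway is known for keeping satellite cells quiescent and myoblasts undifferentiated, and for being switched down as myoblasts commit to fusion.

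The genes described were 10 of the 10289 genes that have a row in any of the 3 deposited RNA-seq tables, and they were selected by symbol. They are the receptors Notch1, Notch2 and Notch3, the ligands Jag1, Jag2 and Dll1, and the HES/HEY genes Hes1, Hes6, Hey1 and Heyl. Each of the 10 symbols was found once, on a protein-coding gene. The cells were C2C12, an established mouse myoblast line that divides in serum-rich growth medium (GM) and fuses into myotubes in differentiation medium, which holds little horse serum. All RNA-seq groups were stable, puromycin-selected C2C12 lines made with a lentiviral vector that drives its insert from the CMV promoter, so the controls carry the vector too. The inserts were GFP (the control), mouse Mettl3 or mouse Mettl14, which encode the core subunits of the enzyme that writes N6-methyladenosine (m6A) on RNA. GFP cells were sequenced in GM (day 0) and on day 4 of differentiation (D4), and Mettl3 and Mettl14 cells in GM, which gave 4 groups of 2 libraries and 8 libraries in all. The labels do not say whether the 2 libraries of a group came from separate cultures. The titles place the Mettl14 libraries at day 0 and their time point field at D4, and the titles were followed. Another 4 libraries, of m6A immunoprecipitation and its input, were not analysed here.

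The tables compare D4 with GM, Mettl3 cells with GFP cells and Mettl14 cells with GFP cells, and each was limited to genes at a false discovery rate of at most 0.05. They are called the D4, METTL3 and METTL14 tables here. The value used is the mean normalized count, which is each gene's read count divided by a library size factor and averaged over libraries by the authors. It is 1 pooled number per gene, with no value per library, no spread and no test. It mixes dividing cells with myotubes, and GFP cells with cells that overexpress Mettl3 or Mettl14. A gene was called listed where it had a row. A row gives no direction here, because the authors' fold changes and p-values were not used, and a missing row gives neither a level nor evidence that a gene did not change. Since the number of genes tested was not used either, shares of listed genes are given over the 10289 genes with any row, of which 95.5% were in the D4 table, 17.0% in the METTL3 table and 10.7% in the METTL14 table. This base leaves out every gene listed nowhere, and the size of the D4 table alone puts the D4 share near its upper end.

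The labelled cell type was checked against its markers. The myogenic genes were abundant, from a mean normalized count of 593 for Myf5 to 1845 for the regulator Myod1, 5221 for the muscle cadherin Cdh15 and 24157 for the intermediate filament gene Des. The myotube genes ran from 2124 for Myog through 8634 for the calcium release channel gene Ryr1, 10820 for Tnnt3 and 40372 for Myh3 to 53546 for Acta1, and the proliferation genes Cdk1, Mki67 and Top2a were at 1749, 5812 and 5855. No endothelial marker (Pecam1, Cdh5, Kdr) and no immune marker (Ptprc, Cd68) was listed. A missing row gives no level, so this cannot show that such cells were absent. Of the neural markers named here, Sox2 was listed, with a mean normalized count of 11.5, and Neurog2 was not. Mettl3 was listed in the METTL3 table and Mettl14 in the METTL14 table. Neither was listed in the table of the other writer, and Mettl14 was also in the D4 table.

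Promoter sequence is shown for 3 members, to set the richest in E-boxes beside a member without them. Hes6 and Dll1 had the most E-boxes of the member promoters, and Notch3 was listed in every table and had none. Each run is the 250 bases before a RefSeq start site (build GRCm38.p6), 5′ to 3′ on the gene's own strand, with E-boxes (CANNTG) in capitals, and holds no annotated exon of the gene it is named for. The Dll1 run overlaps an exon of the noncoding gene A930024N18Rik on the opposite strand. The Hes6 run is chr1:91414039-91414288, the Dll1 run chr17:15376933-15377182 and the Notch3 run chr17:32166891-32167140, all on the minus strand.
Hes6: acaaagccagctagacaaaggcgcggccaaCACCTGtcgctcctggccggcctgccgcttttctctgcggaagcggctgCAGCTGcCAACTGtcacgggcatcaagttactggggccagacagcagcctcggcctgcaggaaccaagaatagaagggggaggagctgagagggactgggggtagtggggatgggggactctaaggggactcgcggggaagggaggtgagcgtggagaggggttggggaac
Dll1: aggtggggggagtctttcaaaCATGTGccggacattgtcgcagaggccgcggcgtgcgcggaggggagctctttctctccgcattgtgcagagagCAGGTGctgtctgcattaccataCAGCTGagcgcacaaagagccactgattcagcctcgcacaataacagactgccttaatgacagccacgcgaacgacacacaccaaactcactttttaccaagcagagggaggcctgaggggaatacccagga
Notch3: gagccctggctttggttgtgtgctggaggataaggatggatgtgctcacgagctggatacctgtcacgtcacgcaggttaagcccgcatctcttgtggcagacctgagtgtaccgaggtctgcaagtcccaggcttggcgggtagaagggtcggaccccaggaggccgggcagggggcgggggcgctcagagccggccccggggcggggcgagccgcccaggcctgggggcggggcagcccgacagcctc

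The members spanned a wide range of levels. Notch2 had the highest mean normalized count, 5206, and Heyl the lowest, 72.9. Longer transcripts give more fragments, so counts also order genes by length, and levels were compared between genes after division by merged exon length. Per kilobase (kb) of exon, the median of the members was 101.6, against 99.5 over all listed genes, and 5 of the 10 were above the latter. The highest level per kb was 33.9 times the lowest, and the order was Notch2, Hes6, Hes1, Notch3, Jag2, Jag1, Dll1, Hey1, Notch1 and Heyl. Without values per library, it could not be said which neighbours in this order differed beyond their spread. Notch2 exceeded Hes6 by a factor of 1.03 per kb and Hes1 exceeded Notch3 by a factor of 1.01, the smallest steps. Hes6 took the first place when the longest transcript or the longest coding sequence replaced the merged exons. With the coding sequence, the range ran from 1259 per kb for Hes6 to 64.4 for Notch1.

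**Figure D1:**
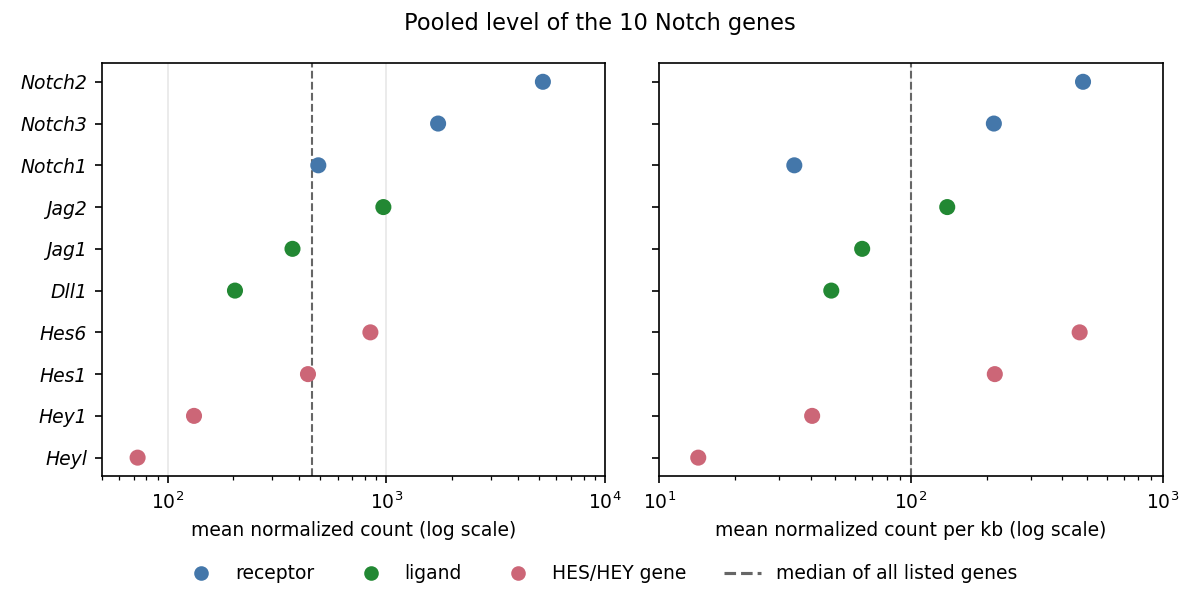
Pooled level of each member, as the mean normalized count (left) and the same per kb of merged exon (right), both on log axes, with 1 point per gene coloured by role and a dashed line at the median of all listed genes (458 and 99.5). Notch1 lies just right of the line by count and left of it per kb, whereas Hes1 lies just left by count and right per kb.

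Among the member receptors, Notch2 had the highest pooled level per kb and Notch1 the lowest. Notch2 (ENSMUSG00000027878, chromosome 3, 98013527 to 98150361 of GRCm38, plus strand) had a mean normalized count of 5206 over 10782 exonic bases, or 483 per kb. It stood above 87.6% of all listed genes per kb. Notch3 (ENSMUSG00000038146, chromosome 17, 32120820 to 32166852, minus strand), known in vessels and in the satellite cell lineage, had a mean normalized count of 1727, or 213 per kb. Notch1 (ENSMUSG00000026923, chromosome 2, 26457903 to 26516663, minus strand), the best studied receptor, had a mean normalized count of 489 over 14232 exonic bases, or 34.4 per kb, and only 27.9% of the listed genes were lower per kb. Per kb, the Notch2 level was 2.26 times that of Notch3 and 14.1 times that of Notch1. The annotated exons of Notch1 include 11 transcripts whose longest has 9488 bases. Divided by that length, the Notch1 level was 51.5 per kb, still the lowest of the member receptors when each was divided by its longest transcript.

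Among the ligands, Jag2 had the highest pooled level per kb. Jag2 (ENSMUSG00000002799, chromosome 12, 112907819 to 112929776, minus strand), which encodes a Jagged ligand, had a mean normalized count of 970, or 139 per kb. Its paralog Jag1 (ENSMUSG00000027276, chromosome 2, 137081456 to 137116644, minus strand) had a mean normalized count of 373, or 63.9 per kb. Dll1 (ENSMUSG00000014773, chromosome 17, 15367354 to 15376872, minus strand), a Delta ligand needed for embryonic muscle growth, had a mean normalized count of 203, or 48.2 per kb. Jag2 thus stood at 2.18 times Jag1 and 2.89 times Dll1 per kb, and Jag1 at 1.33 times Dll1. Jag2 was above the median of all listed genes per kb, and Jag1 and Dll1 were below it.

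The HES/HEY genes included the shortest members and, per kb of merged exon, the lowest level, that of Heyl. Hes6 (ENSMUSG00000067071, chromosome 1, 91411483 to 91414038, minus strand) is a family member known to counteract HES1 and to be expressed in differentiating muscle, and it is commonly not counted as a direct Notch target. It had a mean normalized count of 846 over 1808 exonic bases, or 468 per kb. Hes1 (ENSMUSG00000022528, chromosome 16, 30064384 to 30067796, plus strand), the classical target, had a mean normalized count of 439, or 215 per kb. Hey1 (ENSMUSG00000040289, chromosome 3, 8663359 to 8667256, minus strand) and Heyl (ENSMUSG00000032744, chromosome 4, 123233556 to 123249875, plus strand), which are used as Notch readouts in satellite cells, had the lowest levels per kb of this family. Hey1 had a mean normalized count of 132, or 40.5 per kb, and Heyl one of 72.9, or 14.3 per kb. Per kb, the Hes6 level was 2.17 times that of Hes1, 11.6 times that of Hey1 and 32.8 times that of Heyl. Per kb of longest coding sequence, Hes6 was at 1259 and Heyl at 74.6, a smaller ratio, and Notch1 with 64.4 was lower than Heyl.

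**Figure D2:**
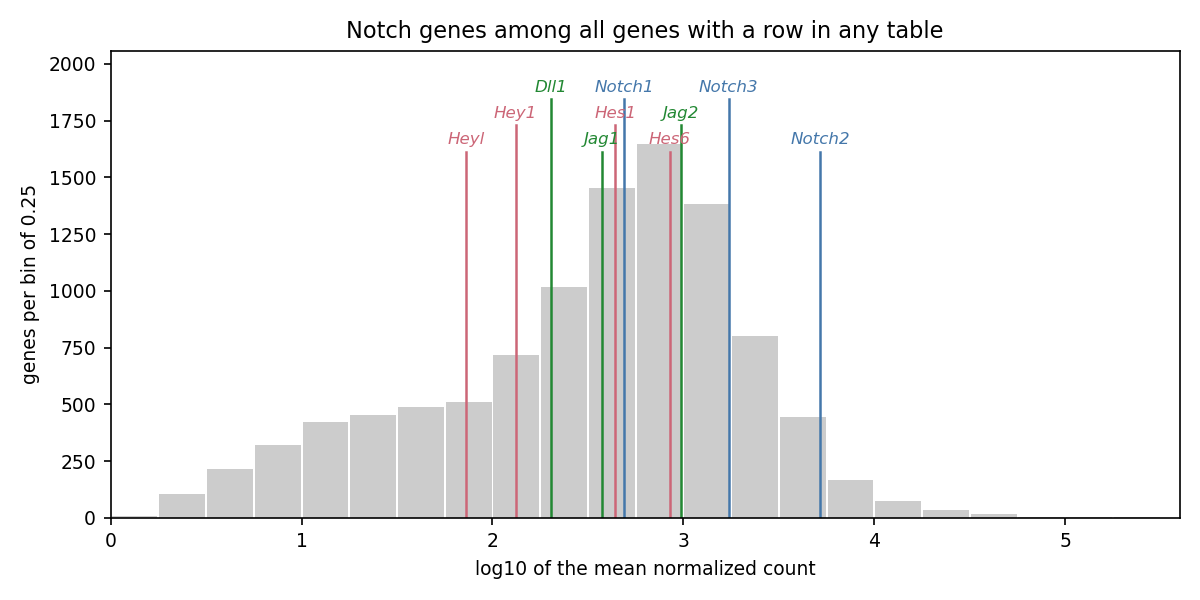
Number of listed genes (grey bars) by the log10 of the mean normalized count, in equal bins, with a coloured line for each member (blue receptors, green ligands, red HES/HEY genes) whose height has no meaning. The members fall in the middle of the axis, from Heyl, above 21.8% of the listed genes, to Notch2, above 96.5%.

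The tables were then read for which members each comparison listed. The D4 table listed 6 of the 10 members, where 95.5% of the genes with any row were in it. These were Notch2, Notch3, Jag2, Dll1, Hes6 and Heyl. The METTL3 table also listed 6, against 17.0% of the genes with any row, namely Notch3, Jag1, Jag2, Hes1, Hes6 and Hey1. The METTL14 table listed 5, against 10.7%, namely Notch1, Notch3, Jag1, Jag2 and Dll1. The members were chosen with these tables known, so these shares describe the choice as much as the pathway. Listing depends on level, and among the 7693 genes whose mean normalized count lay between those of Heyl and Notch2 the shares were close to those of all genes, at 95.8%, 18.8% and 11.8%. This range holds most of the 10289 genes, so its shares had little room to differ. Genes were not matched to each member by level.

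**Figure D3:**
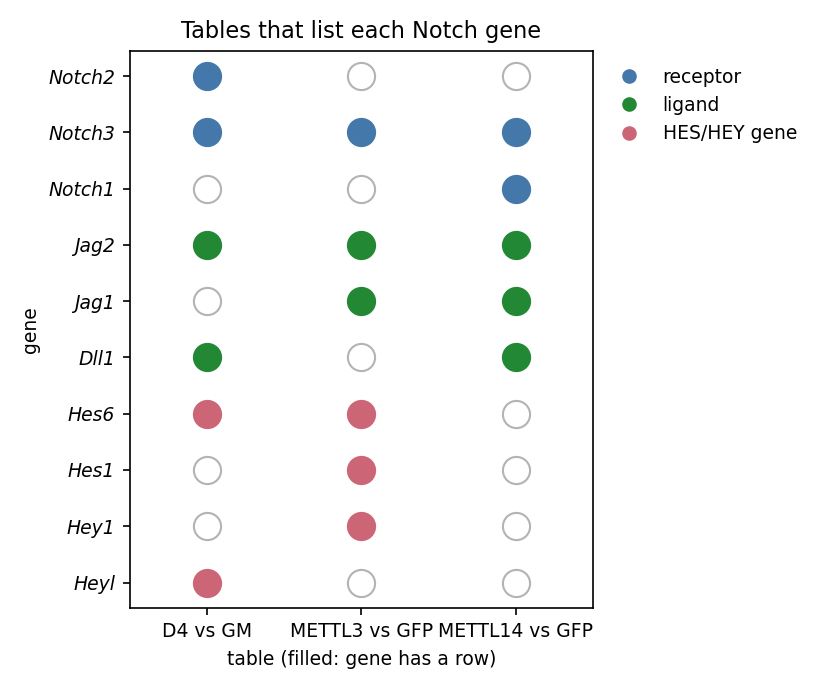
Tables that list each member, with 1 row per gene, 1 column per table and a filled circle where the gene has a row. Notch3 and Jag2 are filled in all 3 columns, and the METTL14 column is empty for all 4 HES/HEY genes.

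By role, the METTL14 table held 3 of the 3 ligands, 2 of the 3 receptors and 0 of the 4 HES/HEY genes. With 10.7% of all genes in this table, a count of 0 among 4 is near the background. The METTL3 table held 2 ligands, 1 receptor and 3 HES/HEY genes, all but Heyl. Whether any of these genes responded differently to the 2 writers was not tested, since a gene just outside the limit has no row. The METTL3 and METTL14 comparisons also share the GFP libraries. The members common to both were Notch3, Jag1 and Jag2, and 7.86% of all genes with a row were in both. The pair listed in every table, Notch3 and Jag2, belonged to a pattern that held 6.26% of all genes with a row.

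The remaining members fell into 6 patterns. Notch2 and Heyl were listed in the D4 table alone, as were 80.1% of all genes with a row. Hes1 and Hey1 were listed in the METTL3 table alone (2.15% of all genes), and Notch1 in the METTL14 table alone (0.778%). Hes6 was in the D4 and METTL3 tables (7.04%), Dll1 in the D4 and METTL14 tables (2.07%) and Jag1 in the METTL3 and METTL14 tables (1.60%). In all, 4 members (Notch1, Jag1, Hes1 and Hey1) had no row for D4 against GM, as did 466 of the 10289 genes (4.53%).

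A list of 59 other pathway genes, grouped by role, was read in the same way. Of these, 37 had a row, 35 in the D4 table, 8 in the METTL3 table and 5 in the METTL14 table. These are 94.6%, 21.6% and 13.5% of the 37, near the 95.5%, 17.0% and 10.7% of all genes with a row. Without the corepressor and general coactivator genes, 25 had a row, and the shares were 92.0%, 32.0% and 20.0%. All 3 tables held 4 of the 37 and 6.26% of all genes with a row. Per kb, the median level of the 37 was 104.8, against 101.6 for the members. The remaining receptor gene, Notch4, known from endothelium, had a mean normalized count of 17.9 and was in the D4 table. Its level of 2.22 per kb was below that of each member receptor. Of the remaining ligand genes, Dlk2, a noncanonical Delta-like gene, was in all 3 tables with a mean normalized count of 108, Dll4 was in the D4 table with 2.46, and Dll3 and Dlk1 were not listed.

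Of the genes that modify or cut the receptor, 3 of 5 glycosyltransferase genes and 6 of 10 protease genes had a row. Pofut1, which adds the O-fucose that receptors need for ligand binding, had a mean normalized count of 895 and was in the D4 and METTL3 tables. Poglut1, which adds O-glucose, and Lfng, which extends the fucose, were in the D4 table with 817 and 278. Among the proteases, Furin, which cleaves the receptor precursor, had 2730, and the gamma-secretase gene Ncstn had 1994, both in the D4 table. Adam17 was in the METTL3 table alone, whereas Adam10, the main ligand-dependent ADAM protease for the receptors, was not listed.

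Of the 12 trafficking and ubiquitin ligase genes, 9 had a row, and 6.26% of all genes with a row were in all 3 tables. This role held 3 of the 4 list members found in all 3 tables. These were Neurl1a and Neurl1b, Neuralized ligases that act on ligands, and Dtx4, a Deltex ligase, with mean normalized counts of 698, 52.6 and 548. Dtx3, another Deltex gene, had 1841 and was in the D4 table, and Mib2, a Mind bomb ligase, had 575 and was in the D4 and METTL3 tables. In the nuclear complex, Rbpj had a mean normalized count of 441 and was in the D4 table, as were the Mastermind genes Maml1 with 738 and Maml3 with 423. Maml2 was in the METTL3 and METTL14 tables and not in the D4 table. Of the 15 corepressor and general coactivator genes, 12 were in the D4 table and 0 in the tables of the writers. At the shares of all genes with a row (95.5%, 17.0% and 10.7%), nearly all of 12 genes would be in the D4 table and few in the others. The 12 include Ctbp1 with 2916 and Hdac2 with 2631. Per kb, these were at 651.5 and 588.1. None of the 6 remaining target genes (Hes2, Hes3, Hes5, Hes7, Hey2 and Nrarp) had a row in any table. This gives neither their level nor evidence that they did not change. The share of all annotated genes that have a row was not determined, so counts of genes with a row have no background here.

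**Figure D4:**
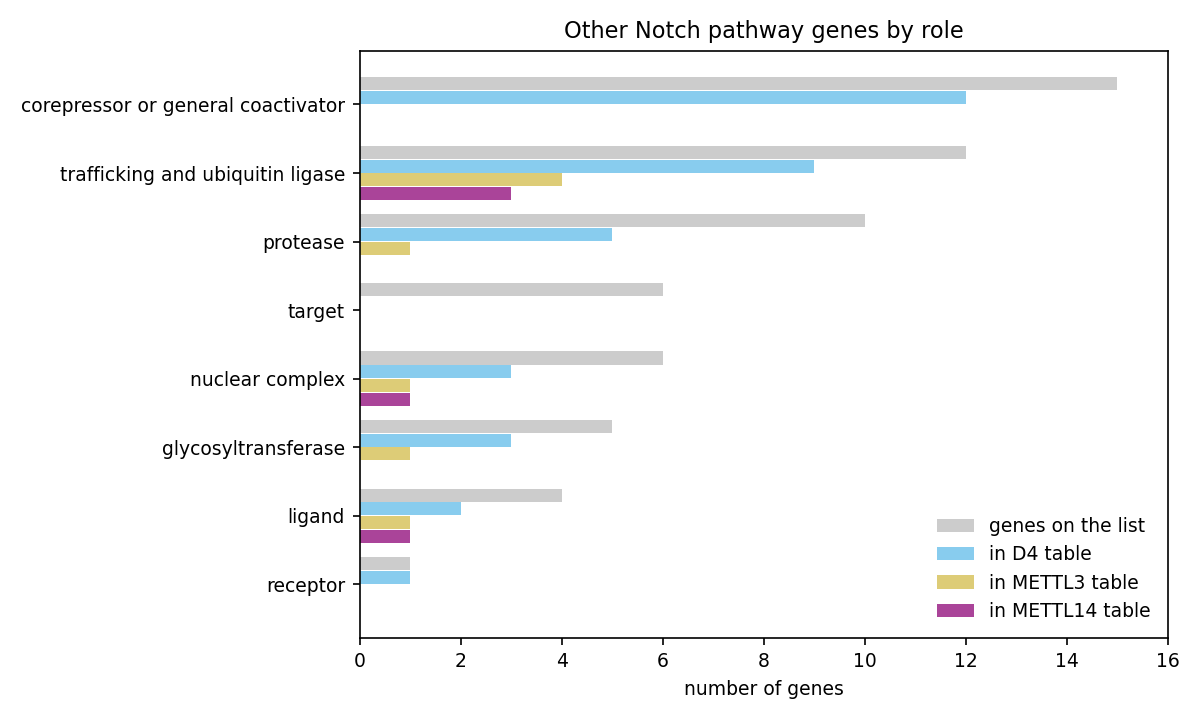
Number of pathway genes other than the members, by role, with a grey bar for the genes on the list and coloured bars for those in the D4, METTL3 and METTL14 tables. The 15 corepressor and coactivator genes have 12 in the D4 table and none in the other tables, and the 6 further targets have none in any table.

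Promoter windows (250 bases before to 50 after a RefSeq start site) were found for 7 of the members, which gave 9 windows, since Hes6 and Dll1 have 2 start sites each. Hes1, Hey1 and Heyl were not in the promoter table. The windows had a median GC content of 65.0%, from 55.7% for Jag1 to 86.0% for Jag2, against 52.7% over all 32851 promoters and 60.7% over the 9741 promoters of listed genes. The ratio of observed to expected CpG had a median of 0.706 in the members, against 0.384 over all promoters and 0.740 over those of listed genes.

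The letters of 3 kinds of site were searched on both strands. The core of the CSL site (TGGGAA), to which RBPJ binds, was in 0 of the 9 windows. It was in 25.6% of all promoters and 23.3% of those of listed genes. The absence says only that these letters are not in these windows, and Hes1, Hey1 and Heyl had no window to search. E-boxes (CANNTG), the binding sites of helix-loop-helix factors such as MYOD1, were in 5 of the 9 windows, those of Hes6, Dll1 and Jag1. They were in 72.3% of all promoters and 64.4% of those of listed genes. The second Hes6 window and the second Dll1 window, whose upstream parts are printed above, held 3 E-boxes each. The Hes6 E-boxes began 220, 171 and 164 bases before the start site, and the Dll1 E-boxes 229, 155 and 132 bases before it. N-boxes (CACNAG), which HES proteins bind, were in 5 of the 9 windows, those of Notch1, Notch2, Notch3, Hes6 and Dll1. They were in 42.5% of all promoters and 40.2% of those of listed genes. In the Notch3 window they began 204 and 159 bases before the start site. No E-box overlapped an N-box, and 2 of the N-boxes of Notch1 overlapped each other.

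**Figure D5:**
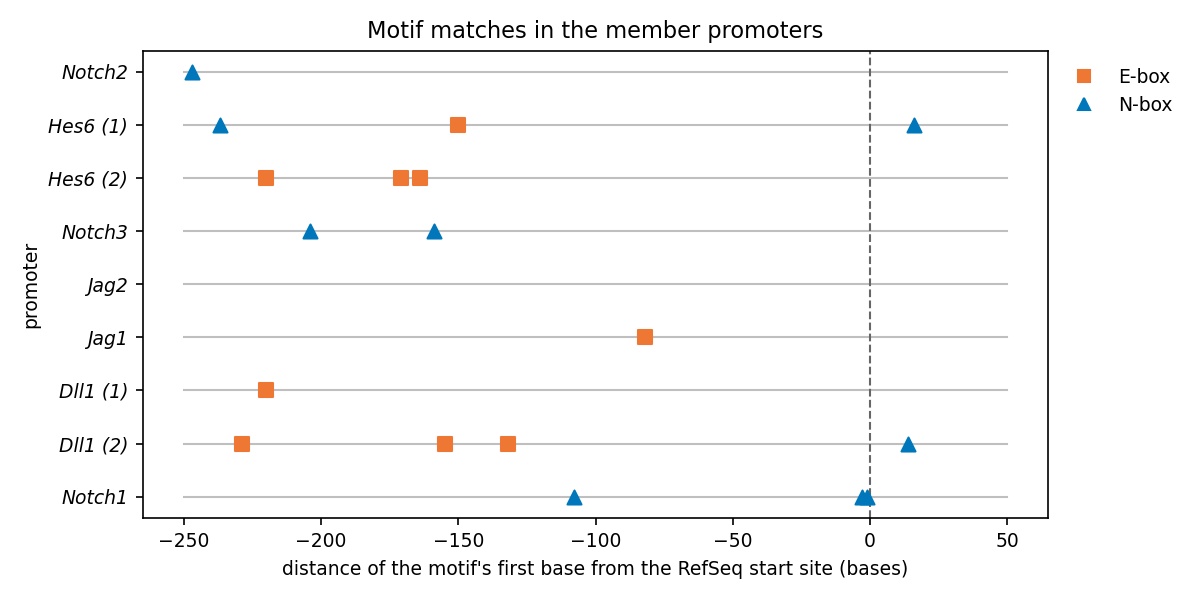
Positions of E-boxes (squares) and N-boxes (triangles) in the 9 member promoter windows, as the distance in bases of the first base of each match from the RefSeq start site (dashed line), with both start sites of Hes6 and Dll1 numbered. The E-boxes lie in the windows of Hes6, Dll1 and Jag1, the Jag2 window holds neither motif, and no window holds a CSL site.

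Some members share exonic bases with other annotated genes, and whether reads were counted by strand is not given in the sources used here. On the opposite strand, 20.5% of the Dll1 exonic bases are shared with A930024N18Rik, 7.50% and 2.91% of those of Notch1 with 0610009E02Rik and Gm13568, and 6.03% of those of Notch3 with Gm17276. On the same strand, 5.02% of the Notch2 exonic bases are shared with Gm42820. Of these partners only Gm42820 had a row in a table. The part of the overlaps in the values of the members was not tested.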

How the data were processed

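The authors aligned the RNA-seq reads to GRCm38 with hisat2, counted them with featureCounts over the genes of Ensembl 102, compared groups with DESeq2 and kept genes at a false discovery rate of at most 0.05. The versions of these programs are not given in the sources used here. Of the deposited columns, the mean normalized count was used, a signal that the authors averaged over libraries after division by size factors. The deposited tables also hold the authors' log2 fold change, its standard error, the test statistic and the p-values, which were not used. For the 1746 genes with several rows, the means differed by a relative 4.77e-10 at most. No value per library was used, and read depth per library was not analysed here.

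Genes were matched by symbol. Positions and merged exon lengths came from GENCODE M21 on GRCm38, the same build in another annotation release, which held 10282 of the 10289 identifiers. Promoters came from RefSeq (GRCm38.p6). No sample was tested against another. The 10 members and the gene lists were chosen with earlier results of these data known. Genes named were all members, all markers and the 3 genes with the highest mean normalized count in each pathway role, except that some genes these rules name are not reported here. Neurl1b, Dtx4, Maml2, Adam17 and genes named as not listed were added after their values were seen. The counting of listed genes and the search for TGGGAA were tested on simulated data with known answers, and the E-box and N-box searches were not. The alternatives were other lengths, backgrounds, filters and motif settings. The protein comparison that had been planned was not made. Python 3.11.15, pandas 2.3.3, SciPy 1.17.1 and matplotlib 3.10.9 were used.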

Additional observations from a re-analysis of the deposited data

How the results depend on the processing

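No paired analysis was possible because no value per library was used, and for the same reason no replicate was left out in turn. Of 48 values under alternative settings, 33 stayed within a factor of 1.5 (or, for percentiles, within the exact 95% binomial interval, which covers counting of genes only) and 15 moved. Matching by Ensembl identifier, protein-coding genes only and a minimum mean count of 100 kept the counts of listed members within this factor. Among genes of the D4 table only, which listed 6 members, 3 members were in the METTL3 table and 3 in the METTL14 table. Of the 9823 genes of the D4 table, 724 were also in the METTL3 table only, 213 in the METTL14 table only and 644 in both. Dividing by the longest coding sequence gave 1259 per kb for Hes6, 702 for Notch2, 518 for Hes1, 259 for Jag2 and 248 for Notch3. It gave 147 for Hey1, 101.98 for Jag1, 93.9 for Dll1, 74.6 for Heyl and 64.4 for Notch1, which put Hes6 first and Notch1 last. The lowest percentile of a member by count was 15.3 among protein-coding genes and 16.4 among genes whose mean count reached 10, and the median percentile 45.4 and 47.0, against 21.8 and 50.4 among all listed genes. Without corepressors and coactivators, 23 pathway genes were in the D4 table, 8 in the METTL3 table and 5 in the METTL14 table. The letters GTGGGAA in place of TGGGAA were also in 0 of the member windows.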
